A study of Homo sapiens with 15 samples.

Results

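Fatty acid synthesis, elongation and lipid storage were followed through 34 genes in LNCaP cells, a human prostate cancer line that responds to androgen. The genes were listed by their known roles, from the enzymes that supply acetyl-CoA and NADPH through to the proteins of the lipid droplet. This list and the other gene lists were chosen with earlier results of these data known. Counts within them are therefore a description and no independent test. Of the 34 genes, 32 were among the 17272 genes of the deposited table and all 32 were tested, while ELOVL2 and PLIN2 were not analysed here. All cells were starved for 2 days in medium with charcoal-stripped serum and then received 1 nM R1881, a synthetic androgen, and were harvested after 22 h. The R1881 group (10 libraries) received R1881 with DMSO, and the enzalutamide group (5 libraries) received R1881 with 2 µM enzalutamide, an androgen receptor antagonist. Polyadenylated RNA was sequenced to between 15830745 and 25416052 counted reads per library, and the comparison asks which transcripts differ when the receptor is blocked in androgen-stimulated cells. No library of cells without R1881 was analysed here, and both groups come from a single cell line, so that the differences are those of antagonist against vehicle in the presence of androgen.

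Fatty acids are built in the cytosol from acetyl-CoA, which ATP citrate lyase releases from citrate. Acetyl-CoA carboxylase turns acetyl-CoA into malonyl-CoA, and fatty acid synthase joins these units into palmitate with NADPH as the reductant. Palmitate is then lengthened by the elongases and their partner enzymes at the endoplasmic reticulum, given double bonds by the desaturases, activated to acyl-CoA by the long-chain acyl-CoA synthetases, and esterified to triacylglycerol, which is kept in lipid droplets. Lipogenic enzymes are known androgen-responsive genes of prostate cancer cells, in part through the sterol regulatory element-binding proteins (SREBPs).

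Levels are given in CPM, read counts scaled to library size by the authors. A gene was called when its adjusted p in limma, fitted to log2(CPM + 0.5) over 17046 genes, was below 0.05, and fold changes are log2 values of enzalutamide minus R1881 on that scale, which understates the change of genes near 0 CPM. The methods of the study call the libraries biological replicates, while the labels do not name separate cultures, and the p-values measure the spread between these libraries. KLK3, which encodes prostate-specific antigen and is a classical androgen receptor target, fell from a median of 1549 CPM to 134 CPM. All 6 of 6 androgen-induced genes of a control list, KLK3 among them, were called lower, beside 32.7% of all genes. The 8 luminal prostate markers, KLK3 among them, all had a row and summed to 7124 to 8123 CPM with R1881 and 3986 to 4116 CPM with enzalutamide. They did not move together. Of the 8, 4 (50%) were called lower and 4 (50%) higher, beside 32.7% and 29.8% of all genes. Of markers of other cells, none of 4 leukocyte and none of 5 adipocyte genes had a row, 1 of 4 basal genes did (KRT14, at most 1.44 CPM), and the 1 endothelial gene of 3 (VWF) reached at most 3.35 CPM. A gene without a row has no value here, so its absence from the cells was not shown. The 3 fibroblast genes of 5 with a row (COL1A1, COL3A1 and LUM) summed to 6.36 to 10.5 CPM with R1881 and 21.2 to 26.7 CPM with enzalutamide. All 15 of 15 proliferation genes were called lower with enzalutamide (summed CPM 1309 to 1633 against 716 to 817), beside 32.7% of all genes. Of the 15, 8 also differed between R1881 libraries with label numbers 51 to 55 and 71 to 75. So did 3 of the 6 androgen-induced genes, where 3.29% of all genes were called between these series. The part of these differences in the results on lipid genes was not tested. All 5 enzalutamide libraries are numbered 81 to 85, and no R1881 library is. A difference between label series therefore cannot be told apart from the treatment, and the labels give no meaning to the numbers. In bulk RNA, fewer cells of a type and less RNA per cell cannot be told apart.

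Library-wise deviations of the 32 genes from their treatment mean followed the GC content of their transcripts in several libraries. Across the 32 genes, which share each library and its base composition, Spearman's rho between GC content and deviation was 0.85 in the R1881 library numbered 73 and 0.81 in the enzalutamide library numbered 83, and ranged from -0.82 to 0.72 in the other 13 libraries. Of the 32 genes, 12 had their highest R1881 value in library 73 and 15 their highest enzalutamide value in library 83. GC-rich transcripts such as FASN, AGPAT2, DGAT1, TECR and PNPLA2 had wide ranges within a treatment. Across the same genes, rho between GC content and the log2 fold change was -0.01. The part of the GC trend in any single result was not tested beyond a fit with the trend removed and a fit without both libraries, whose values are given where they change a call or move a value strongly.

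**Figure D1:**
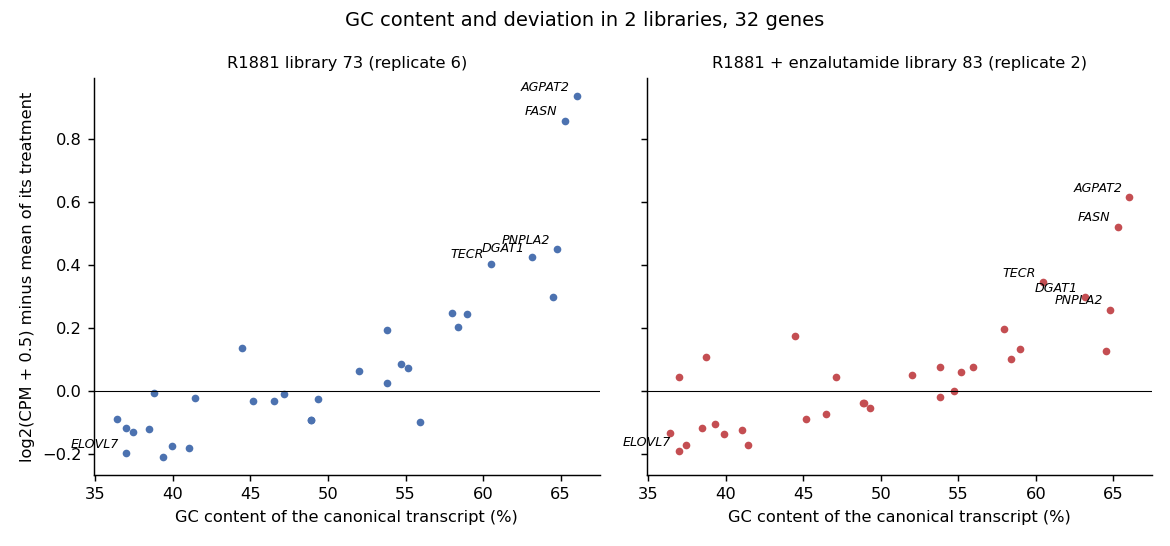
Deviation of each of the 32 lipid genes from the mean of its treatment (log2(CPM + 0.5), vertical axis) against the GC content of its canonical transcript (percent, horizontal axis) in R1881 library 73 (left) and enzalutamide library 83 (right). Each point is a gene, and GC-rich genes such as FASN and AGPAT2 lie above 0 in both libraries while AT-rich genes such as ELOVL7 lie below it, with Spearman's rho of 0.85 and 0.81.

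With enzalutamide, 27 of the 32 lipid genes were called in either direction, where 62.5% of all genes tested were. Of these, 18 (56.2% of the 32) were called lower, beside 32.7% of all genes, and 9 (28.1%) were called higher, beside 29.8% of all genes. Of the 18, 11 (34.4%) fell at least 1.5-fold, a size reached in that direction by 9.55% of all genes: FASN, ACACA, ACLY, SCD, FADS1, FADS2, ELOVL1, ELOVL5, ELOVL7, ACSL3 and LPIN1. Another 3 (9.38%) rose at least 1.5-fold, against 9.06% of all genes, namely ACSL4, ACSL5 and DGAT2, and this count was 1 with a pseudocount of 1 CPM and 0 against R1881 libraries 51 to 55 alone. The 5 enzalutamide values were all lower than the 10 R1881 values for 15 of the 32 genes and all higher for 5, which held for 20.1% and 17.1% of all genes. The median log2 fold change of the 32 genes was -0.22, beside -0.01 for all genes tested. The summed level of the 32 genes fell by 52.3%, from a median of 9334 CPM (8888 to 9791 over R1881 libraries) to 4449 CPM (4329 to 4502 over enzalutamide libraries). Abundant genes such as ACSL3 and ELOVL5 (R1881 medians 1273 and 1180 CPM) weigh most in this sum. It is not scaled to transcript length and does not describe the genes that rose. When library totals were set to 1000000, 39.3% of all calls were lower rather than 52.3%, the median of all genes moved from -0.01 to 0.07, and of the lipid genes 17 were called lower and 11 higher.

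**Figure D2:**
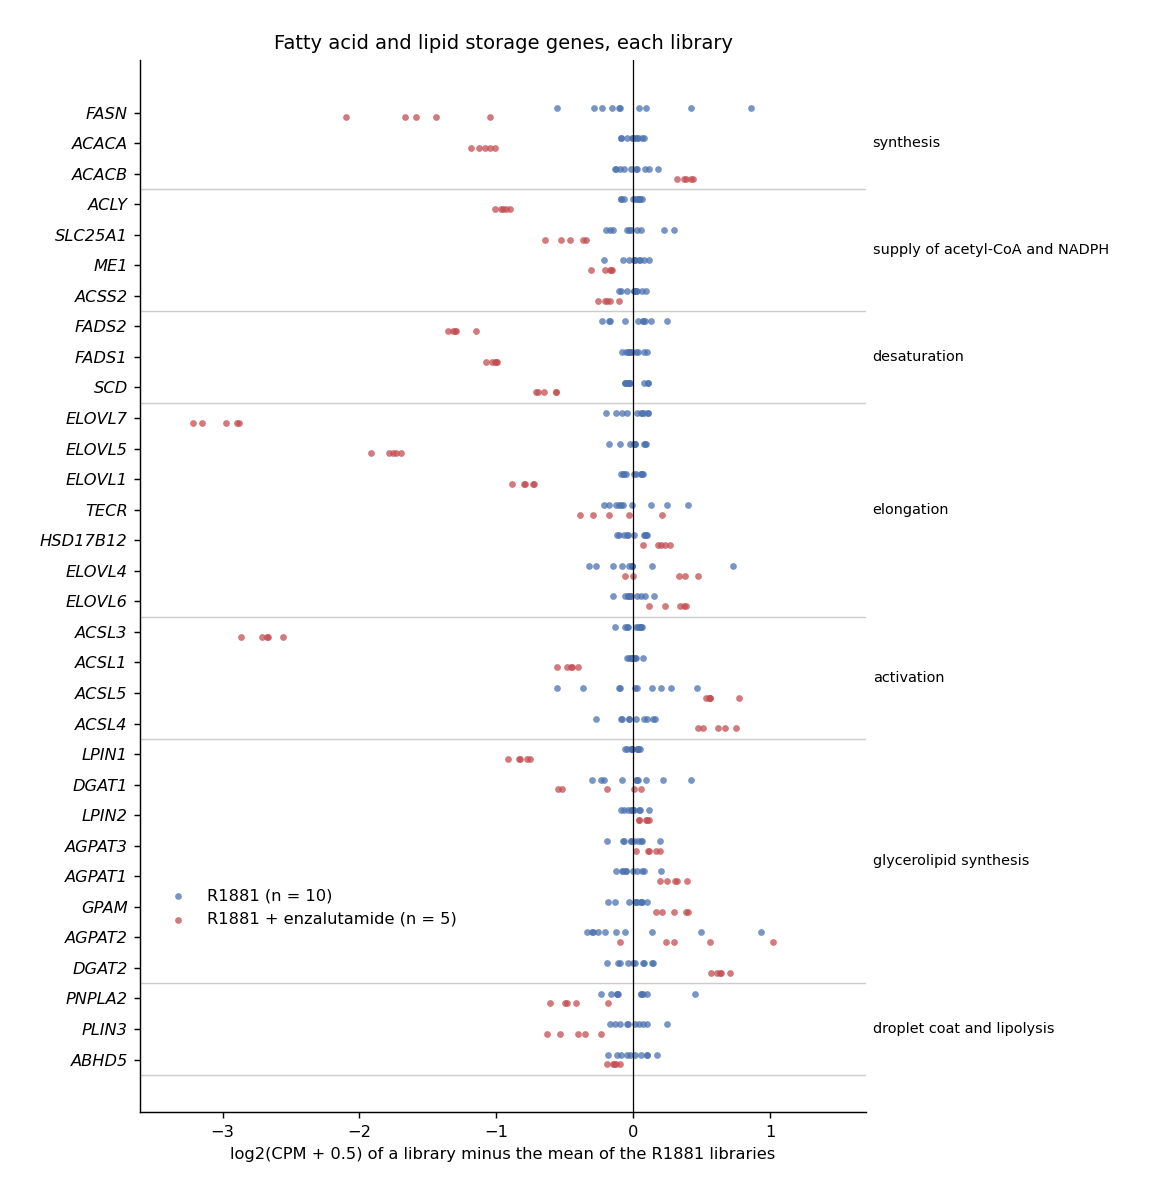
Each point is a library of the 32 lipid genes, grouped by role, placed by its log2(CPM + 0.5) minus the mean of the R1881 libraries (horizontal axis), with R1881 and enzalutamide libraries in different colours. The enzalutamide points of ELOVL7 and ACSL3 lie farthest to the left, those of DGAT2, ACSL4 and ACSL5 lie to the right, and the points of FASN and AGPAT2 are widely spread within each treatment.

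Promoter sequence was read because many of these genes fell together. RefSeq (GRCh38.p14) windows were given for 30 of the 34 genes, 52 windows in all, and the 250 bases before each start were searched on both strands for 5 motifs. FASN, HSD17B12, DGAT1 and DGAT2 had no window, so their promoters were not searched. The sterol element TCACNCCAC, a binding sequence of SREBPs, was found in 2 of 52 windows (3.85%), those of ACSL1 and PNPLA2, against 0.848% of the 14383 windows of tested genes. The NF-Y box CCAAT was in 20 windows (38.5% against 33.4%), the GC box GGGCGG in 38 (73.1% against 62.7%) and the E-box CACGTG in 4 (7.69% against 8.22%). The androgen response element, GNACA and TGTNC with 3 bases between them, was in none of the 52 windows, against 0.216% of the windows of tested genes. Several genes have more than 1 window, and overlapping windows share bases. A match is a description of letters and no evidence of binding. Shown are the parts free of annotated exons for both genes with the largest decreases (ELOVL7 and ACSL3), for 3 abundant genes of synthesis and desaturation that fell (ACACA, ACLY and SCD) and for PNPLA2, which holds the sterol element. They are written 5′ to 3′ on the gene's strand, and capitals mark matches to the searched motifs on either strand.
ELOVL7, chr5:60844275-60844394, minus strand: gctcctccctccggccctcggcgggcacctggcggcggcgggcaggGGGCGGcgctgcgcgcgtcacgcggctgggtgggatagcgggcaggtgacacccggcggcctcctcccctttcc
ACSL3, chr2:222860822-222860941, plus strand: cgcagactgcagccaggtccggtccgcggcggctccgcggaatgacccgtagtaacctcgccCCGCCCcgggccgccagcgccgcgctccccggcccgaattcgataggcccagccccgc
ACACA, chr17:37406950-37407069, minus strand: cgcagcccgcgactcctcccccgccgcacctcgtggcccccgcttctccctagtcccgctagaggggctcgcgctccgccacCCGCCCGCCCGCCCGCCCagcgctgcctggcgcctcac
ACLY, chr17:41919023-41919142, minus strand: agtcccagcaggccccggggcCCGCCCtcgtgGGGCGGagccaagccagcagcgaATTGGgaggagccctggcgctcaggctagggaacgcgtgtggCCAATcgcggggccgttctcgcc
SCD, chr10:100347113-100347232, plus strand: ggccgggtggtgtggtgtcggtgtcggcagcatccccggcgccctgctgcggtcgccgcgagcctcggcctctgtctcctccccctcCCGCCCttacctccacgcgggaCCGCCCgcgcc
PNPLA2, chr11:818754-818913, plus strand: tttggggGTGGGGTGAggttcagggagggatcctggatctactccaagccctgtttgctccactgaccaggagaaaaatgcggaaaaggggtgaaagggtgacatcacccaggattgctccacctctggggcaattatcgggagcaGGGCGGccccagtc

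The ELOVL7 and ACSL3 stretches each hold 1 GC box. ACACA holds 4 overlapping GC box matches in a run of repeated units, and ACLY holds 2 GC boxes and 2 NF-Y boxes, 1 of each on either strand. The SCD stretch holds 2 GC boxes. The searched windows of ELOVL7, ACSL3, ACACA, ACLY and SCD hold further matches outside these stretches. The PNPLA2 stretch holds the sterol element on the opposite strand and a GC box nearer to the start. The ACLY stretch precedes a RefSeq start that lies inside the annotated span of the gene.

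The start of the pathway was lower throughout. All 4 genes that supply acetyl-CoA and NADPH were called lower, beside 32.7% of all genes. Of the 4, 1 fell by more than 1.5-fold, a size reached by 9.55% of all genes. ACLY, the citrate lyase (chromosome 17, 41866917 to 41930542, GRCh38, minus strand), was measured at 747 to 829 CPM (median 806) in R1881 libraries and at 407, 426, 395, 411 and 417 CPM in the 5 enzalutamide libraries. The groups did not overlap, and the median of ACLY fell by 49.1% (log2 fold change -0.95, SE 0.032, adjusted p = 3.56e-16). SLC25A1, the mitochondrial citrate carrier, changed less, from a median of 69.9 CPM (61.8 to 87.6) with R1881 to 45.2, 56, 54.9, 49.1 and 51.5 CPM with enzalutamide, also with no overlap (log2 fold change -0.47, SE 0.072, adjusted p = 9.71e-06). ACSS2, which makes acetyl-CoA from acetate, and ME1, the cytosolic malic enzyme that yields NADPH, were lower by small amounts. ACSS2 went from a median of 60.7 CPM (56 to 64.4) to 52.7 CPM (50.4 to 55.9), and ME1 from 99.2 CPM (84.9 to 106) to 87.4 CPM (79.4 to 88.4). Their log2 fold changes were -0.18 (adjusted p = 3.15e-04, limma) and -0.20 (adjusted p = 6.39e-04, limma), and the ME1 groups overlapped.

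Both enzymes of palmitate synthesis fell, while the second carboxylase isoform rose. ACACA, the acetyl-CoA carboxylase of lipogenesis (chromosome 17, 37084992 to 37406836, minus strand), had 1036 to 1169 CPM (median 1110.3) with R1881 and 549.7, 505, 485, 534 and 521 CPM with enzalutamide. Its groups lay far apart relative to their spread (log2 fold change -1.09, SE 0.035, adjusted p = 1.50e-16). FASN, the fatty acid synthase (chromosome 17, 82078338 to 82098294, minus strand), had a median of 686 CPM (498 to 1329.6) over R1881 libraries and measured 171, 355, 244, 231 and 269.8 CPM in enzalutamide libraries 1 to 5. The highest R1881 value and the highest enzalutamide value came from libraries 73 and 83, and no enzalutamide value reached the lowest R1881 value. FASN fell by 1.57 on the log2 scale (SE 0.17, adjusted p = 1.12e-07, limma), with the widest standard error of the 11 large decreases, and its log2 fold change was -1.51 when the GC trend was removed and -1.60 without libraries 73 and 83. When the library labels were permuted in every possible way (exact permutation test, two-sided), FASN gave p = 0.000333, the smallest it can give. All 15 lipid genes that were lower without overlap gave this same value, so it adds little to the lack of overlap. The permutation cannot separate treatment from label series. ACACB, the carboxylase isoform tied to control of mitochondrial fatty acid oxidation, was a minor transcript beside ACACA per kilobase of transcript (median 1.17 against 111 CPM per kb with R1881). It rose from a median of 11 CPM (9.94 to 12.4) to 14.2, 14.4, 14.8, 13.8 and 14.9 CPM, without overlap (log2 fold change 0.39, SE 0.059, adjusted p = 9.34e-06).

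**Figure D3:**
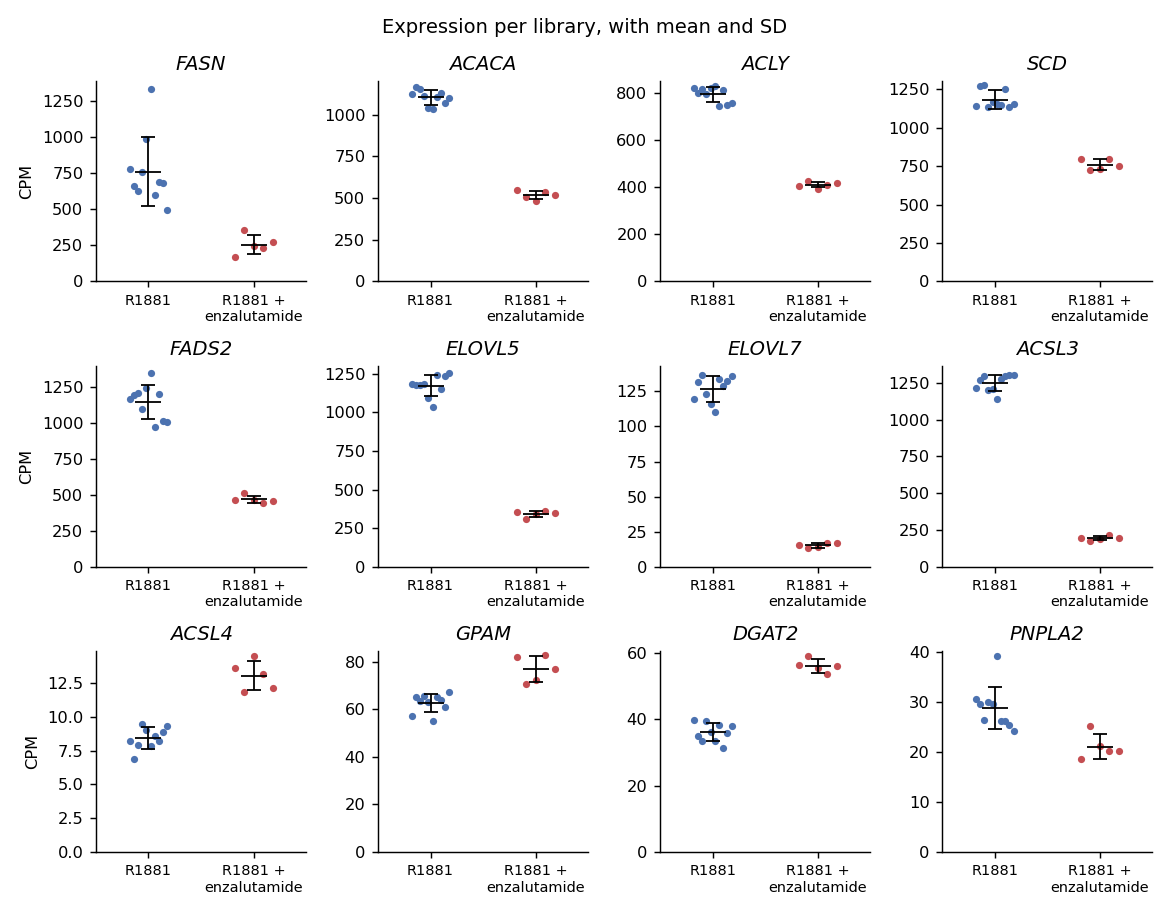
Level in CPM (vertical axes, starting at 0) of 12 lipid genes in each library, with points for the 10 R1881 and 5 enzalutamide libraries and bars for the mean ± SD of each group. The enzalutamide points lie below the R1881 points for the 8 genes of the upper rows and above them for ACSL4, GPAM and DGAT2, and FASN shows the widest spread among R1881 libraries, from 498 to 1329.6 CPM.

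All 3 desaturases fell, each at least 1.5-fold and without overlap. Of all genes, 9.55% were called at least 1.5-fold lower and 20.1% were lower without overlap. SCD, the stearoyl-CoA desaturase that makes oleate and palmitoleate (chromosome 10, 100347233 to 100364826, plus strand), went from a median of 1157 CPM (1133 to 1277) to 799.6, 722, 730.2, 798 and 755 CPM (log2 fold change -0.64, SE 0.038, adjusted p = 4.66e-12). A pseudogene row, SCDP1, held 15.9 to 32 CPM, so that reads shared with SCD are uncertain at that scale. FADS1 and FADS2, the delta-5 and delta-6 desaturases of polyunsaturated fatty acids, lie head to head on chromosome 11. In RefSeq (GRCh38.p14) the FADS1 start at position 61817003 on the minus strand was 800 and 599 bases from the FADS2 starts at 61816203 and 61816404 on the plus strand, and their annotated exons overlap over 4.79% of the FADS1 and 4.64% of the FADS2 exon length. FADS1 measured 173 to 196 CPM (median 181) with R1881 and 91.4, 86.6, 89.7, 91.9 and 90.8 CPM with enzalutamide, 2.0-fold lower by median (log2 fold change -1.02, SE 0.033, adjusted p = 1.45e-16). FADS2 went from a median of 1179.7 CPM (969 to 1346) to 461, 512, 463, 444 and 457 CPM (log2 fold change -1.28, SE 0.064, adjusted p = 2.33e-13). FADS2 was the only 1 of the 32 genes that also differed between the R1881 libraries 71 to 75 and 51 to 55, where 3.29% of genes were called. The medians of those series were 1206 and 1008 CPM (log2 difference 0.24, adjusted p = 0.0231, limma). Against either series alone FADS2 was called lower, with log2 fold changes of -1.16 relative to libraries 51 to 55 and -1.40 relative to libraries 71 to 75.

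Elongation was split by enzyme. Of the 7 genes, 3 elongases (42.9%) were called lower and 2 genes (28.6%) higher, beside 32.7% and 29.8% of all genes, and 2 were not called. All 3 elongases fell at least 1.5-fold, a size reached by 9.55% of all genes. With 7 genes, these shares are a description only. ELOVL7, an elongase of saturated very-long-chain fatty acids (chromosome 5, 60751791 to 60844274, minus strand), showed the largest log2 fold change of the 32 genes. Its printed promoter stretch has 1 GC box, and the searched window has more outside that stretch. ELOVL7 had 110.4 to 137 CPM (median 130.4) with R1881 and 15.7, 13.2, 13.8, 16.6 and 16.7 CPM with enzalutamide. The groups stood far apart, and the median was 8.31-fold lower (log2 fold change -3.02, SE 0.061, adjusted p = 3.81e-20). ELOVL5, which elongates polyunsaturated fatty acids after the desaturation steps (chromosome 6, 53267398 to 53349179, minus strand), fell from a median of 1180.1 CPM (1038 to 1253) to 352, 311, 341, 361 and 347 CPM. Its median fell by 70.6% (log2 fold change -1.78, SE 0.043, adjusted p = 9.92e-19), and no libraries of the groups overlapped. ELOVL1, an elongase of saturated and monounsaturated very-long chains, went from a median of 173 CPM (161 to 180.2) to 103, 103, 98.1, 92.6 and 98.9 CPM (log2 fold change -0.79, SE 0.037, adjusted p = 9.94e-14).

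In contrast, ELOVL6, which elongates palmitate to stearate, rose slightly, from a median of 44.8 CPM (40.9 to 50.5) to 59, 49.4, 57.8, 59.4 and 53.5 CPM, with 1 enzalutamide library inside the R1881 range (log2 fold change 0.29, SE 0.051, adjusted p = 4.56e-05). HSD17B12, the 3-ketoacyl-CoA reductase of the elongation cycle, also rose, from a median of 79.7 CPM (74.1 to 86.5) to 92.7 CPM (84.7 to 97.2), within overlapping groups (log2 fold change 0.19, SE 0.045, adjusted p = 8.97e-04), and 16% of its exon length is overlapped by genes on the opposite strand. The strand setting of the counting was not known here. TECR, the enoyl reductase that closes the cycle, ranged from 73.8 to 113 CPM with R1881 and from 65.3 to 98.9 CPM with enzalutamide. It was not called at -0.13 ± 0.097 (log2 fold change ± SE, adjusted p = 0.235, limma) and has a pseudogene row, TECRP1, at 32.2 to 56.4 CPM. Without enzalutamide replicate 2 (library 83) TECR was called lower at -0.22 (adjusted p = 0.0442, limma), and without libraries 73 and 83 together at -0.18 (adjusted p = 0.033, limma). With the GC trend removed its log2 fold change shrank to -0.055 (adjusted p = 0.206, limma), and TECR had its highest values in libraries 73 and 83. ELOVL4, the elongase of ultra-long chains, was counted with as few as 6 reads in a library, at a median of 0.621 CPM with R1881 and 0.930 CPM with enzalutamide, and was not called (log2 fold change 0.23, adjusted p = 0.18, limma). Without R1881 replicate 7, which held its highest value of 1.38 CPM, it was called higher at 0.31 (adjusted p = 0.0252, limma).

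The acyl-CoA synthetases moved in opposite directions. ACSL3, a synthetase of the endoplasmic reticulum and lipid droplet surface (chromosome 2, 222860942 to 222944639, plus strand), measured 1142 to 1306 CPM (median 1273) with R1881 and 195, 171, 190.2, 212 and 197 CPM with enzalutamide. This 6.51-fold decrease of the median had the lowest adjusted p of the 32 genes (log2 fold change -2.69, SE 0.042, adjusted p = 8.54e-22). ACSL1 was lower by a smaller amount, from a median of 294 CPM (287 to 310.0) to 215, 200.3, 212, 223 and 217 CPM, without overlap (log2 fold change -0.47, SE 0.029, adjusted p = 9.53e-12). ACSL4, which prefers arachidonate, rose 1.57-fold by median, from a median of 8.39 CPM (6.90 to 9.48) to 13.7, 11.9, 14.5, 13.2 and 12.2 CPM (log2 fold change 0.60, SE 0.072, adjusted p = 3.26e-07). ACSL5 was higher at a very low level, from a median of 0.711 CPM (0.309 to 1.15) to 1.26, 1.53, 1.23, 1.26 and 1.25 CPM (log2 fold change 0.60, SE 0.14, adjusted p = 7.40e-04). Neither ACSL4 nor ACSL5 overlapped between groups.

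Family levels were compared per kilobase of the canonical transcript. The summed level of the 4 synthetases fell from a median of 312 to 96.2 CPM per kb. ACSL3 made up 73.3% ± 0.826 (SD, n = 10) of that sum with R1881 and 36.3% ± 0.914 (SD, n = 5) with enzalutamide, while the share of ACSL1 went from 26% ± 0.811 to 60.4% ± 0.814. The order of ACSL3 and ACSL1 was therefore inverted between the treatments, although both transcripts fell. With lengths of all annotated exons joined, the share of ACSL3 was 65.1% ± 0.968 and 28% ± 0.80, and the inversion was the same. The 5 elongases with a row summed to 587 CPM per kb with R1881 and 205 CPM per kb with enzalutamide. ELOVL5 was the most abundant in both groups, with 73% ± 1.45 and 60.6% ± 1.81 of the sum. The share of ELOVL1 went from 20.2% ± 1.58 to 33.2% ± 2.09, that of ELOVL7 from 5.63% ± 0.244 to 1.92% ± 0.164 and that of ELOVL6 from 1.19% ± 0.0516 to 4.16% ± 0.228, so that ELOVL6 passed ELOVL7. With enzalutamide ACSL4 made up 2.81% ± 0.220 and ACSL5 0.424% ± 0.0647 of the synthetase sum, so that both remained minor transcripts. Shares of a sum are not independent of each other, and were not tested.

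**Figure D4:**
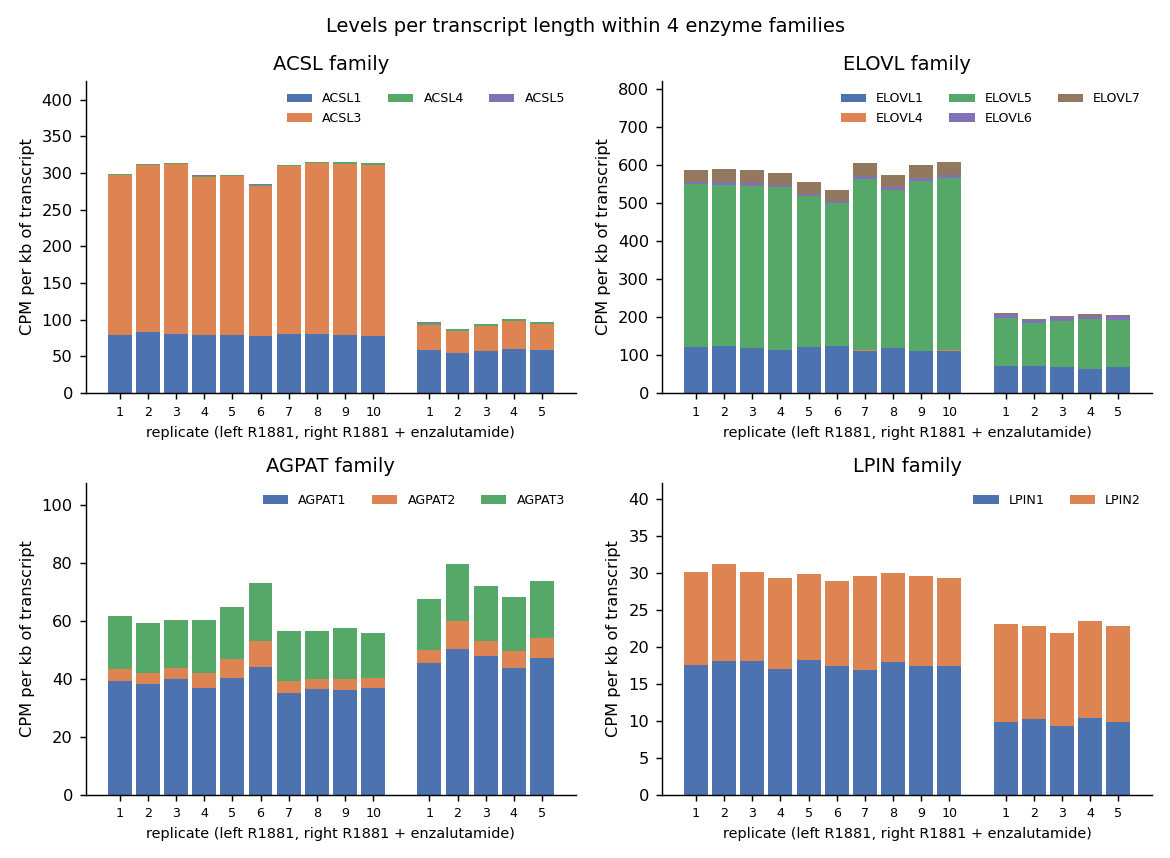
Level per kilobase of canonical transcript (CPM per kb, vertical axes from 0) of the members of 4 families, the ACSL synthetases, ELOVL elongases, AGPAT acyltransferases and lipins, stacked in a bar for each of the 10 R1881 libraries (left) and 5 enzalutamide libraries (right). The ACSL3 segment is larger than the ACSL1 segment with R1881 and smaller with enzalutamide, and the ELOVL bars shrink with ELOVL5 still the largest segment.

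Of the 8 genes of glycerolipid synthesis, 1 (12.5%) was called lower and 4 (50%) higher, beside 32.7% and 29.8% of all genes, and 3 were not called. With 8 genes, these shares are a description only. LPIN1, a phosphatidate phosphatase that makes diacylglycerol, was the lower gene, from a median of 95.2 CPM (92 to 98.9) to 53.7, 55.7, 50.5, 56.6 and 53.5 CPM (log2 fold change -0.82, SE 0.033, adjusted p = 6.99e-15). Its groups were narrow and separate. LPIN2, its relative, ranged from 69.2 to 80.2 CPM with R1881 and from 75.9 to 80.1 CPM with enzalutamide. It was not called at a log2 fold change of 0.08 ± 0.036 (SE, adjusted p = 0.059, limma). The call of LPIN2 depended on single libraries. Without R1881 replicate 2 or 7 it was called higher, at 0.09 each (adjusted p = 0.023 and 0.0495, limma), as it was under each other scaling run, with both count models and with the GC trend removed (0.10). DGAT2, a diacylglycerol acyltransferase of the final step of triacylglycerol synthesis, rose from a median of 36.1 CPM (31.5 to 39.8) to 56.6, 59.2, 55.4, 53.6 and 56.1 CPM. All 5 enzalutamide libraries lay above the R1881 range (log2 fold change 0.63, SE 0.052, adjusted p = 1.11e-09). DGAT1, the other acyltransferase of that step, ranged from 16.2 to 27.2 CPM with R1881 and from 13.6 to 21 CPM with enzalutamide. It had a log2 fold change of -0.24 ± 0.11 (SE, adjusted p = 0.0749, limma) over wide and overlapping groups. It was called lower without R1881 replicate 10 at -0.27 (adjusted p = 0.0392, limma), without enzalutamide replicate 2 at -0.31 and without enzalutamide replicate 3 at -0.30 (adjusted p = 0.0255 and 0.0407, limma). It was also called lower with the GC trend removed, at -0.17, and without libraries 73 and 83, at -0.27.

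GPAM, the mitochondrial acyltransferase that starts glycerolipid synthesis, rose from a median of 63.7 CPM (55.1 to 67) to 82, 70.4, 72.3, 82.9 and 76.9 CPM without overlap (log2 fold change 0.29, SE 0.050, adjusted p = 3.32e-05). Among the acyltransferases of the next step, AGPAT1 was called higher, from a median of 82.7 CPM (77.2 to 96.9) to 104 CPM (96.2 to 110.4, log2 fold change 0.29, SE 0.048, adjusted p = 1.99e-05), though 30.3% of its exon length is overlapped by EGFL8 and its read-through transcript on the opposite strand. AGPAT3 went from a median of 114 CPM (100.3 to 131) to 124 CPM (116 to 131), higher by 0.12 on the log2 scale (adjusted p = 0.0314, limma). That call was lost without R1881 replicate 3 or 8 or enzalutamide replicate 2, 4 or 5, with log2 values of 0.10 to 0.12 and adjusted p of 0.0508 to 0.0862 in limma. AGPAT2, a GC-rich transcript, ranged from 5.46 to 13.9 CPM with R1881 and from 6.56 to 14.8 CPM with enzalutamide, and was not called at 0.41 ± 0.19 (SE, adjusted p = 0.0701, limma). It was called higher without R1881 replicate 5 (0.46), R1881 replicate 6 (0.51) or enzalutamide replicate 1 (0.53), and also with the GC trend removed (0.45) or without libraries 73 and 83 together (0.36). The summed AGPAT level was 59.8 CPM per kb with R1881 and 72 CPM per kb with enzalutamide, with AGPAT1 the most abundant of the 3 in both groups.

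The 3 genes of the droplet coat and of lipolysis were called lower, beside 32.7% of all genes, each by less than 1.5-fold. PLIN3, a perilipin of the droplet surface, went from a median of 63.7 CPM (57.1 to 76.3) to 41.4, 54.6, 48.5, 44.2 and 50.1 CPM without overlap (log2 fold change -0.43, SE 0.065, adjusted p = 8.25e-06), and 18.3% of its exon length has an annotated gene on the opposite strand. PNPLA2, the adipose triglyceride lipase, had 24.2 to 39.1 CPM (median 28) with R1881 and 18.5, 25.1, 21.2, 20.1 and 20.2 CPM with enzalutamide. Only enzalutamide replicate 2 lay inside the R1881 range of PNPLA2, and the decrease was called (log2 fold change -0.44, SE 0.089, adjusted p = 2.27e-04). ABHD5, the activator of PNPLA2, went from a median of 31.1 CPM (27.5 to 35.4) to 28.3 CPM (27.3 to 29.2), a log2 fold change of -0.14 (adjusted p = 0.0282, limma). The ABHD5 call was lost without enzalutamide replicate 3, 4 or 5 (adjusted p = 0.0529, 0.0718 and 0.0518, limma), and with library totals set to 1000000 its log2 fold change was -0.05 (adjusted p = 0.424, limma).

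Genes around the pathway were described from 5 lists of regulators, relatives of the enzymes, further droplet genes, uptake genes and further supply genes. Of 89 listed genes, 64 had a row, and of these 30 (46.9%) were called lower and 17 (26.6%) higher, where 32.7% and 29.8% of all genes were. At least 1.5-fold changes were found for 13 (20.3%) in the lower and 8 (12.5%) in the higher direction, beside 9.55% and 9.06% of all genes. Among the regulators, 6 of 16 (37.5%) were lower and 4 (25%) higher. SREBF1, which encodes the SREBP of fatty acid synthesis, was not called, with 144 to 275 CPM (median 177) with R1881 and 128, 208, 168, 153 and 172 CPM with enzalutamide (log2 fold change -0.17, SE 0.12, adjusted p = 0.222). It was called lower with the GC trend removed, at -0.10 (adjusted p = 0.014, limma), and without libraries 73 and 83, at -0.19 (adjusted p = 0.046, limma), and its highest values lay in those libraries. SREBF1 overlapped widely between groups, and its isoforms were not resolved. SREBF2, which encodes the SREBP of sterol synthesis, fell from a median of 224 to 139.6 CPM (log2 fold change -0.65, SE 0.052, adjusted p = 6.26e-10), and SCAP, the escort protein that carries SREBPs to the Golgi, fell from 129.9 to 63.3 CPM (log2 fold change -0.97, SE 0.077, adjusted p = 6.67e-10).

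The genes of both insulin-induced retention proteins, which hold SCAP in the endoplasmic reticulum, moved in opposite directions. INSIG1, itself an SREBP target, measured 165 to 184 CPM (median 176) with R1881 and 64.7, 60.6, 64.8, 67.9 and 61.3 CPM with enzalutamide (log2 fold change -1.45, SE 0.035, adjusted p = 1.00e-18). INSIG2 rose from a median of 23.3 CPM (20.8 to 25.1) to 79.9, 68.8, 77.1, 79.9 and 76.3 CPM (log2 fold change 1.69, SE 0.050, adjusted p = 3.70e-17). Neither gene overlapped between groups, and the fall of INSIG1 and the rise of INSIG2 were each called. PPARG, a nuclear receptor of lipid storage, rose from a median of 4.86 to 9.07 CPM (log2 fold change 0.74), and MLXIPL, which encodes the carbohydrate-responsive factor ChREBP, rose from 0.781 to 1.82 CPM (log2 fold change 0.95), both at low levels.

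Among relatives of the enzymes, 10 of 19 (52.6%) were lower and 7 (36.8%) higher. MOGAT2, a monoacylglycerol acyltransferase, fell from a median of 7.85 CPM to at most 0.465 CPM (log2 fold change -3.34, SE 0.10, adjusted p = 5.59e-17). PLPP1, a phospholipid phosphatase, fell from 527 to 167 CPM (log2 fold change -1.67), HACD2, a dehydratase of the elongation cycle, by 0.86 and AGPAT5 by 0.62 on the log2 scale. The higher relatives past 1.5-fold were SCD5 (0.63), HACD1 (0.72), ACSL6 (0.67) and ACSS1 (0.94), with medians with enzalutamide of 22.5, 1.44, 2.23 and 1.21 CPM. Of further droplet genes, 6 of 13 (46.2%) were lower and 3 (23.1%) higher, with SOAT1, the sterol acyltransferase, at -0.84, HSD17B11 at -0.62 and PLIN4 at 1.03 (log2 fold change, PLIN4 from 0.287 to 1.07 CPM).

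Of the uptake genes, 4 of 9 (44.4%) were lower and 2 (22.2%) higher, beside 32.7% and 29.8% of all genes. DBI, the acyl-CoA-binding protein, went from a median of 663 CPM (633 to 699.7) to 132, 120.3, 139.7, 136 and 132 CPM (log2 fold change -2.32, SE 0.037, adjusted p = 1.01e-21). Of the further supply genes, 4 of 7 (57.1%) were lower and 1 (14.3%) higher. With so few genes in each list, these shares are a description only. IDH1, the cytosolic isocitrate dehydrogenase that yields NADPH, went from a median of 1177 CPM (1076 to 1243) to 451, 399, 437, 449 and 443 CPM (log2 fold change -1.42, SE 0.038, adjusted p = 7.09e-18), which was the 1 supply gene past 1.5-fold.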

How the data were processed

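LNCaP cells were profiled by stranded, single-end mRNA sequencing (bcl2fastq 2.17, STAR, featureCounts of Subread and GRCh38, per the submitters' processing notes). The labels give 10 R1881 and 5 enzalutamide libraries, and these groups were used although the methods text of the study states the numbers in the reverse order. The deposited values are a signal for each gene, scaled by the authors to library size (CPM in the methods). Column totals were 1053406 to 1078567 in R1881 libraries and 985580 to 1008992 in enzalutamide libraries, rather than 1000000. Plain totals were therefore not the scale, and the scaling rule was not given in the sources used. The analysis planned for CPM was run on the values as deposited. Dividing by the step of 1 read gave whole reads for 100% of values (tolerance 0.01 reads), and these reads, 15830745 to 25416052 per library, set the precision of low genes. Tool versions other than bcl2fastq, the annotation and the use of strand in counting were not given in the sources used.

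Differences were tested in R 4.3.3 with limma 3.58.1 on log2(CPM + 0.5), with a mean-variance trend and treatment alone in the model, over the 17046 genes whose mean reached 0.5 CPM (Benjamini-Hochberg adjustment over all of them, threshold 0.05). Alternatives were edgeR 4.0.16 (quasi-likelihood) and DESeq2 1.42.0 on the recovered reads, other pseudocounts, filters and scalings, each library left out in turn, each R1881 series alone and a replicate block. The scripts were tested on simulated data. The fit with the trend on GC content removed, the fit without libraries 73 and 83, the fit of replicates 1 to 5 without a block and the exon-union lengths were added after seeing the data. Transcript lengths, positions and overlaps come from GENCODE v44 and promoters from RefSeq. The members and gene lists were chosen with earlier results of these data known. All 34 members were to be named, and of the pathway lists those called with at least a 1.5-fold change plus SREBF1, SREBF2, INSIG1, SCAP and some others that are not reported here. Replicate numbers did not pair the libraries (correlation of deviations of same-numbered libraries -0.07 to 0.07). Some libraries of different treatments did deviate together. Enzalutamide library 83 had a correlation of 0.67 with R1881 library 73 and -0.42 with library 53. Enzalutamide library 82 had one of 0.47 with R1881 library 52. The source of these correlations was not tested.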

Additional observations from a re-analysis of the deposited data

Results flagged for a closer look

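In 4 of 64 groups of libraries examined (32 genes in 2 treatments), the highest library stood apart from the others by Dixon's ratio of its gap to the group's range, where chance would give 3.2. Among the 10 R1881 libraries the 95% critical value was exceeded by ELOVL4 in R1881 replicate 7 (1.38 CPM, ratio 0.646) and by PNPLA2 in R1881 replicate 6 (39.1 CPM, ratio 0.566). Among the 5 enzalutamide libraries it was exceeded by FADS2 (512 CPM, ratio 0.726) and ACSL5 (1.53 CPM, ratio 0.904), both in enzalutamide replicate 2. R1881 replicate 6 and enzalutamide replicate 2 are the libraries numbered 73 and 83, in which Spearman's rho between GC content and deviation was 0.85 and 0.81. In R1881 replicate 7, numbered 53, rho was -0.82. The part of GC content in these highest values was not tested.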

How the results depend on the processing

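No fold change of a lipid gene reversed under any alternative run, while the order of the LPIN1 and LPIN2 shares with R1881 changed with the transcript length used. Of 958 pairs of a lipid gene and an alternative (32 genes, up to 30 alternatives), 913 kept the direction and the side of the threshold, and the changed calls were those of ELOVL4, TECR, AGPAT2, AGPAT3, LPIN2, DGAT1 and ABHD5. The number of lipid genes at least 1.5-fold higher moved from 3 to 1 with a pseudocount of 1 CPM and to 0 against R1881 libraries 51 to 55 alone, and the pathway genes called higher moved from 17 to 8 with a mean CPM of at least 5, a filter that leaves fewer genes tested. Leaving out each library in turn gave 10071 to 10877 genes called (10660 with all), 17 to 20 lipid genes lower, 8 to 11 higher, 11 at least 1.5-fold lower, and 2 to 3 at least 1.5-fold higher.

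With the replicate block over replicates 1 to 5 of both treatments, 10117 genes were called, 10333 without the block term, with 18 lipid genes lower and 9 higher (18 and 10 without the term). The pathway counts under the block were 28 lower and 15 higher. The labels give no meaning to the replicate numbers, same-numbered libraries did not deviate together, and none of the 5 enzalutamide libraries correlated best with the R1881 library of its own number. With the block, limma no longer called AGPAT3 (adjusted p = 0.0592) and ABHD5 (adjusted p = 0.07), and it called AGPAT2 (0.40, adjusted p = 0.0292) and DGAT1 (-0.32, adjusted p = 0.00817). Without the block term on the same libraries, ABHD5 was also not called (adjusted p = 0.0559) and DGAT1 was called (adjusted p = 0.0123).

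Family shares depended on the transcript length used. With joined exons, LPIN1 made up 44.7% of the lipin sum with R1881 instead of 59%, so the order of LPIN1 and LPIN2 there was not settled. Depth limits ELOVL4 and ACSL5, counted with as few as 6 and 7 reads in a library.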
